A study of Mus musculus with 20 samples.

Results

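The genes described here carry out or control local glucocorticoid synthesis around Cyp11a1. Their 9 members were chosen by symbol, as rows of the distal colon (DC) count table whose Ensembl identifier has that symbol in the mouse GENCODE annotation: Star, Stard3, Cyp11a1, Fdxr, Fdx1, Cyp11b1, Hsd11b1, Nr5a2 and Nr3c1. Of these, 8 were matched to a row among the 26619 genes of the table. No row was matched to Cyp11b1, the enzyme of the last step to corticosterone, and it was not analysed here. All 8 matched members were among the 17893 genes that passed the filter on low counts, and none lay at the detection floor, set at a median of at most 3 counts over the libraries.

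The libraries came from 20 C57BL/6 mice bred in house, 5 on each of 4 diets. All mice were placed at weaning, with a starting age of 3 weeks in the labels, on the Total Western Diet (TWD), a diet modelled on nutrient intake in the United States, kept on it for 6 weeks, and then fed TWD in which resistant potato starch (RPS, raw potato starch in the labels) made up 0%, 2%, 5% or 10% of the weight for 3 weeks. No gene was altered in any group, and each mouse gave 1 library of polyadenylated RNA from a piece of colon near the anal end, a mixture of epithelium, muscle and other cells in which fewer cells of a type and less RNA per cell cannot be told apart. Diets follow the description label, and for 3 mice the treatment label gives another level: RS10_717 is 5% by description and 2% by treatment, RS10_725 is 10% and 5%, and RS10_748 is 2% and 10%. Library totals ran from 18429493 to 34974230 counts and were lower at 10% RPS (24.3 ± 3.42 megacounts, SD, n = 5) than at 0% RPS (32.8 ± 1.35 megacounts). Levels are therefore given as CPM (counts divided by the library total in megacounts) after scaling by trimmed mean of M-values (TMM), together with raw counts where these are small.

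Steroid hormones are made from cholesterol. Star and Stard3 carry cholesterol towards the inner mitochondrial membrane, where Cyp11a1, the side-chain cleavage enzyme, turns it into pregnenolone with electrons passed on by Fdxr and Fdx1. The gut epithelium is known to make glucocorticoids outside the adrenal gland under the control of the nuclear receptor Nr5a2 (LRH-1), to regenerate active hormone from its inert keto form through Hsd11b1, and to sense it through the glucocorticoid receptor Nr3c1.

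Of the 8 members, Cyp11a1 was the only one with a trend over the diets, and it fell as RPS rose. Its mean level was 4.79 ± 4.50 CPM on TWD alone, 2.31 ± 1.33 CPM at 2% RPS, 1.11 ± 0.869 CPM at 5% and 0.370 ± 0.214 CPM at 10% (SD, n = 5 each). The slope was -0.37 ± 0.07 on the log2 scale for each percent of RPS (SE, edgeR quasi-likelihood test, adjusted p = 0.0190). This was 1 of 8 members, beside 2.10% of all tested genes that passed the same trend test in either direction. The paper had already listed Cyp11a1 first among the genes lowered in the DC at 10% RPS. The members were set around this gene with earlier results of these data known, so its trend is not an independent finding.

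The raw counts behind these levels were small and uneven. At 0% RPS, Cyp11a1 had 103 counts in RS10_701, 12 in RS10_703, 46 in RS10_704, 311 in RS10_707 and 331 in RS10_708. On TWD alone the gene therefore ran from 0.380 to 9.97 CPM, a 26.3-fold range, with RS10_703 lowest and RS10_707 and RS10_708 well above the other 3 mice. At 2% RPS the counts were 53 in RS10_709, 138 in RS10_712, 28 in RS10_715, 50 in RS10_716 and 63 in RS10_748. All mice of the 2% diet lay inside the range of the control mice.

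At 5% RPS, Cyp11a1 had 11 counts in RS10_717, 52 in RS10_718, 26 in RS10_719, 8 in RS10_721 and 51 in RS10_724. RS10_717 and RS10_721 were below the lowest control mouse. By the treatment label RS10_717 is a mouse of the 2% diet. In RS10_721 marker genes of exocrine pancreas summed to 5847 CPM, against 845 CPM in the next highest mouse, RS10_784. At 10% RPS the counts were 4 in RS10_725, 5 in RS10_727, 17 in RS10_729, 9 in RS10_731 and 9 in RS10_784, which is 0.152 to 0.725 CPM. Here 4 of 5 mice lay below the lowest control and all 5 lay below the control median of 2.92 CPM, but RS10_729 lay above RS10_703, so the groups overlapped. No member separated the 5 mice of any RPS diet from the 5 control mice, beside 2.28% of tested genes at 10% RPS, 1.04% at 5% and 0.240% at 2%.

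**Figure D1:**
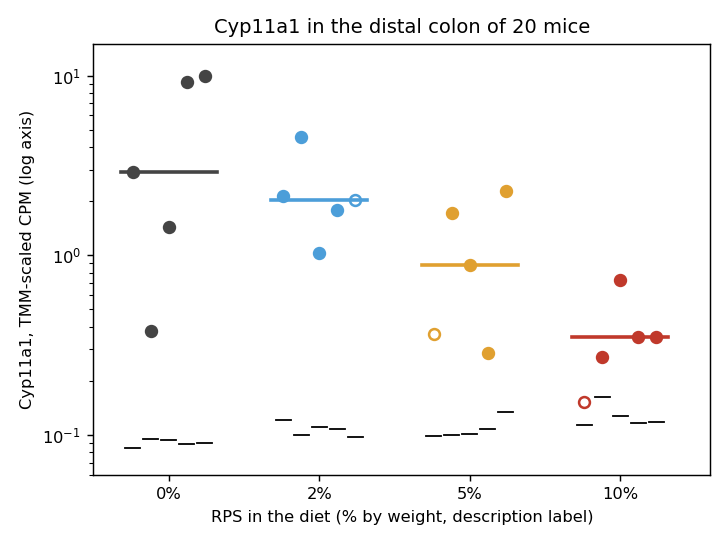
Cyp11a1 in TMM-scaled CPM (log axis) for each of 20 mice by RPS in the diet. Circles are mice, open circles the 3 mice whose labels disagree, thick lines the group medians and short black lines the level that 3 counts would give in that library. The control median is 2.92 CPM and the median of the 10% diet 0.349 CPM, where 1 mouse, RS10_725, sits close to its 3-count line.

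Tested against the control diet, the Cyp11a1 difference at 10% RPS was -3.68 ± 0.82 on the log2 scale (SE), a 12.8-fold lower level with a 95% interval from -5.42 to -1.95. Its edgeR adjusted p of 0.0781 missed the threshold of 0.05 used together with a fold of at least 1.5, and 0 of 8 members were called, beside 0.0391% of all tested genes. With an unadjusted p of 0.000319, Cyp11a1 was the 1 member of 8 under 0.05, against 15.2% of all tested genes. DESeq2 called the same difference (log2 fold change -3.68, adjusted p = 0.000767), as it did for 1.21% of the genes it tested. The difference was -2.13 ± 0.72 at 5% RPS (adjusted p = 0.370) and -1.05 ± 0.68 at 2% RPS (adjusted p = 1.0). edgeR called 0% of tested genes at either of these diets. Leaving out 1 mouse at a time, RS10_717 and RS10_721 among them, gave Cyp11a1 differences of -2.55 to -1.69 at 5% RPS. The test for any difference between the diets gave Cyp11a1 an adjusted p of 0.191, and 0 of 8 members passed it, beside 0.0727% of all tested genes.

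Single mice and the label of 3 mice decided some of these calls. edgeR called the 10% RPS difference when control mouse RS10_703 was left out (log2 fold change -3.97, adjusted p = 0.0243) or control mouse RS10_704 (-3.91, adjusted p = 0.0487). Calls also rose over all tested genes, to 109 of 18001 without RS10_703 and 59 of 18003 without RS10_704, against 7 of 17893 with all mice. The trend no longer passed without RS10_784 of the 10% diet (adjusted p = 0.0594), without the 3 mice of disagreeing labels (slope -0.35, adjusted p = 0.0612), or with diets taken from the treatment label (slope -0.26, adjusted p = 0.215), where the 10% RPS difference was -2.61. In that order, 24 of 18084, 56 of 17928 and 0 of 17893 tested genes passed the trend test, against 375 of 17893 in the main fit.

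Among all tested genes, Cyp11a1 was one of the most variable between mice on the same diet. Its SD within diets was 1.22 on the log2 CPM scale, above that of 99.2% of tested genes, against a median gene of 0.22. The share of its variance that lay between diets was 50.5%, against 16.3% for the median tested gene. The other 7 members had within-diet SDs of 0.10 for Nr3c1, the steadiest, to 0.25 for Hsd11b1, and 8.59% to 21.9% of their variance lay between diets.

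The within-diet spread of Cyp11a1 ran alongside that of Dbp, a clock-controlled transcription factor whose RNA changes strongly over the day. Over the 20 mice the Spearman correlation of log2 CPM was 0.66, and after diet means were subtracted it was 0.74. Among controls, RS10_703 had the lowest Dbp (9.52 CPM) and the lowest Cyp11a1, and RS10_708 had the highest of both (114.0 CPM Dbp). At 10% RPS, Dbp was 3.76 CPM in RS10_725, 10.3 in RS10_727, 44.2 in RS10_729, 59.6 in RS10_731 and 23.8 in RS10_784. Dbp itself differed by -0.97 ± 0.71 at 10% RPS (edgeR adjusted p = 0.549). With log2 Dbp as a covariate, the Cyp11a1 difference at 10% RPS was -2.40 ± 0.55 (adjusted p = 0.0930) and the trend still passed (slope -0.27, adjusted p = 0.0155). Collection times were not given in the sources used here, and the part of time of day in the result was not tested.

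**Figure D2:**
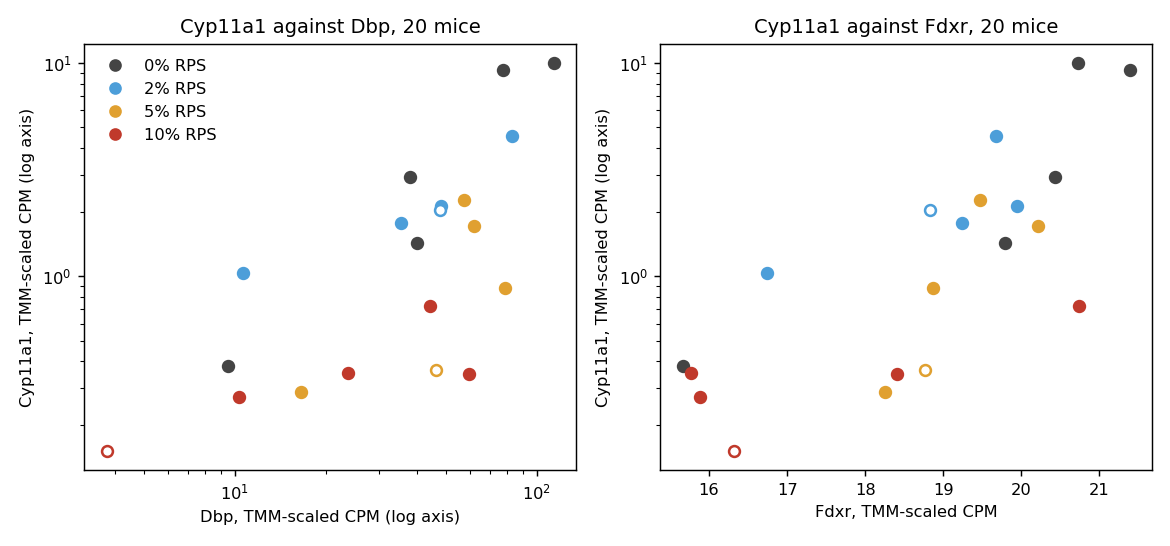
Cyp11a1 (TMM-scaled CPM, log axis) against Dbp (CPM, log axis, left) and Fdxr (CPM, linear axis that does not start at 0, right) in 20 mice, coloured by diet, open circles being the 3 mice with disagreeing labels. Mice low in Dbp or Fdxr were low in Cyp11a1. At similar Dbp the order of the diets varied. RS10_731 of the 10% diet (59.6 CPM Dbp, 0.349 CPM Cyp11a1) lay below RS10_718 and RS10_724 of the 5% diet (1.72 and 2.28 CPM Cyp11a1). RS10_729 of the 10% diet (44.2 CPM Dbp, 0.725 CPM Cyp11a1) lay above RS10_717 of the 5% diet (46.5 CPM Dbp, 0.363 CPM Cyp11a1).

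The summed levels of each marker list overlapped between the 0% and 10% diets. The defining adrenal cortex genes Cyp21a1, the enzyme of the step towards corticosterone, and Mc2r, the corticotropin receptor, never exceeded 10 and 9 counts in a library. The sum of the 5 matched adrenal cortex genes, most of it Star and Akr1b7, ranged over 7.20 to 10.3 CPM in controls and 8.71 to 11.8 CPM in the 10% diet. Mast cell genes ranged over 57.7 to 64.5 CPM and 55.9 to 68.6 CPM, most of it Kit (median 51.8 CPM over the 20 mice). The mast cell sum therefore says little about the other genes of its list. T cell genes ranged over 9.13 to 18.3 CPM and 10.1 to 18.3 CPM. Mast cells and T cells are immune cells of the gut wall. Colon epithelial genes ranged over 10693 to 15195 CPM in controls and 13047 to 16962 CPM in the 10% diet, and tuft cell genes over 20.6 to 27.0 CPM and 24.3 to 33.5 CPM. Over the 20 mice Cyp11a1 correlated negatively with the tuft cell sum (Spearman -0.70, and -0.57 after subtraction of diet means) and with the colon epithelial sum (-0.46 and -0.31). Negative values were not limited to these lists: fibroblast (-0.35 and -0.44), crypt stem and dividing cell (-0.35 and -0.40), adrenal cortex (-0.43 and -0.13). Among those with positive values were exocrine pancreas (0.34 and 0.05) and smooth muscle (0.25 and 0.10). In the pancreas list, Cela1 had a median of 477 CPM and at least 366 CPM in every mouse. Each other gene of that list had a median of at most 0.650 CPM. The part of any cell type in the Cyp11a1 result was not tested beyond the following covariate. With a smooth muscle score as covariate the Cyp11a1 difference at 10% RPS was -3.71 (adjusted p = 0.0658), and with all libraries thinned to the smallest total it was -3.67 (adjusted p = 0.0785).

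Cyp11a1 (ENSMUSG00000032323) lies on the forward strand at chr9:57913694-57935933 of GRCm39, and its position bears on what its counts hold. RefSeq gives the gene 2 start sites 16928 bases apart. A promoter window was read for each from RefSeq sequences of GRCm38.p6 and matched exactly to GRCm39, where the upstream start falls at position 57905307 and the downstream one at 57922235. The upstream start lies 17 bases before the first base of the long noncoding RNA Gm17322 (ENSMUSG00000097604), on the same strand. Gm17322 shares 145 exonic bases with 1 of the 63 annotated Cyp11a1 transcripts, in the 5′ untranslated first exon of that transcript, and none with the canonical transcript. The 250 bases before the upstream start, chr9:57997774-57998023 of GRCm38.p6 on the forward strand, are shown because a RefSeq transcript of Cyp11a1 and Gm17322 both begin just after them. In GENCODE only Gm17322 begins there, and the nearest Cyp11a1 start is 8387 bases downstream. None of the motifs searched occurs in the stretch, so no base is in capitals.
Cyp11a1 upstream promoter: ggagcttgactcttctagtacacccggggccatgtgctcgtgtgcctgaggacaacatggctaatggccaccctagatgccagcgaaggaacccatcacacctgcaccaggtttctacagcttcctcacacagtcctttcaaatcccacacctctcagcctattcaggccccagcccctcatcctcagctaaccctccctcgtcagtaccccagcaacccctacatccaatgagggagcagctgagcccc

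Gm17322, named after its values were seen, also ran lower on average with each step of RPS. Its level was 8.97 ± 7.49 CPM in controls, 7.10 ± 4.19 CPM at 2%, 3.47 ± 2.43 CPM at 5% and 1.22 ± 0.696 CPM at 10% (SD, n = 5 each). It fell with RPS percent (slope -0.30 ± 0.07 log2 per percent, edgeR adjusted p = 0.0301), and its difference at 10% RPS was -2.89 ± 0.74 (adjusted p = 0.0958). The Spearman correlation of the 2 genes was 0.88 over 20 mice and 0.67 after subtraction of diet means. Within the 10% diet their order differed: RS10_725, lowest in Cyp11a1, was highest in Gm17322 (1.86 CPM), and RS10_729, highest in Cyp11a1, was second lowest (0.981 CPM). The 2 genes share a strand and some exonic bases, and how reads in those bases were assigned is not given in the sources used here.

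The downstream window lies wholly within the 5′ untranslated region (UTR) of the canonical Cyp11a1 transcript, which starts at 57921866, while 31 transcripts start within 3 bases of 57922280. Stretches of 30 bases are shown for the hexamer that nuclear receptors of the Nr5a2 type use within their longer site and for a TATA element, each in capitals, on the forward strand of GRCm39. Both searches were added after the longer site had been searched. The first stretch is chr9:57922195-57922224 and its AGGTCA begins 73 bases before 57922280. The second is chr9:57922240-57922269 and its TATAA begins 28 bases before it.
Cyp11a1 AGGTCA stretch: gaggaaggggggAGGTCAccgctccatcag
Cyp11a1 TATAA stretch: tgagctggtggtTATAAgtgtggctctgga

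Within the 300-base windows of RefSeq, AGGTCA on either strand was found in 16.3% of all promoters and TATAA on the forward strand in 17.5%. Among the 8 windows of members, each of the 2 was found in 2, the downstream window of Cyp11a1 and a window of Nr5a2. The full Nr5a2-type monomer sites CAAGGTCA and CAAGGCCA, searched on both strands, occurred in 0 of 8 windows of the 6 members that have an entry (Stard3, Cyp11a1, Fdxr, Fdx1, Hsd11b1 and Nr5a2), and in 3.92% of all promoters. AGGTCA forms the last bases of CAAGGTCA, so the searches overlap. These letters are thus not in these windows, which cover only the bases next to each start.

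The cholesterol carriers did not differ detectably between diets. Star (ENSMUSG00000031574, chr8:26296583-26306010), the acute regulatory protein of adrenal and gonadal steroid synthesis, was 6.40 ± 1.09 CPM in controls and 6.32 ± 0.952 CPM in the 10% diet. Its log2 difference was -0.02 ± 0.14 with an interval from -0.31 to 0.27 (edgeR adjusted p = 0.972). All 20 mice lay between 5.06 and 8.21 CPM, so the diets overlapped throughout. Star overlaps Ash2l on the opposite strand and the strand setting of the counting is not given, so reads of the 2 genes may not be told apart in the shared part.

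Stard3 (ENSMUSG00000018167, chr11:98249166-98272094), which binds sterol on late endosomes, was 63.0 ± 4.71 CPM in controls and 65.0 ± 5.20 CPM in the 10% diet. Its difference was 0.05 ± 0.07 with an interval from -0.11 to 0.20 (adjusted p = 0.820). A 1.5-fold change of Stard3 or Star at 10% RPS lies outside these intervals.

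The electron carriers passed no test between diets, but Fdxr followed Cyp11a1 from mouse to mouse. Fdxr, ferredoxin reductase (ENSMUSG00000018861, chr11:115158844-115168006), measured 20.4, 15.7, 19.8, 21.4 and 20.7 CPM in control mice RS10_701, RS10_703, RS10_704, RS10_707 and RS10_708. At 10% RPS it measured 16.3, 15.9, 20.7, 18.4 and 15.8 CPM in RS10_725, RS10_727, RS10_729, RS10_731 and RS10_784. The lowest control, RS10_703, was also the control lowest in Cyp11a1, and the highest mouse at 10% RPS, RS10_729, was the highest there in Cyp11a1. Fdxr differed by -0.17 ± 0.09 at 10% RPS (interval -0.36 to 0.02, edgeR adjusted p = 0.396), and its trend had an adjusted p of 0.323.

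The Spearman correlation of Fdxr with Cyp11a1 was 0.76 over 20 mice and 0.72 after subtraction of diet means. With Dbp, which is not a member, that of Fdxr was similar at 0.67 and 0.78. These correlations are descriptions over libraries that share diets and one sequencing series. For Fdx1, ferredoxin (ENSMUSG00000032051, chr9:51852253-51875291), the correlation with Cyp11a1 was 0.38. Fdx1 was 19.7 ± 3.70 CPM in controls and 17.6 ± 1.78 CPM in the 10% diet, a difference of -0.17 ± 0.13 (interval -0.43 to 0.10, adjusted p = 0.564). Fdxr and Fdx1 correlated with each other at 0.42.

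**Figure D3:**
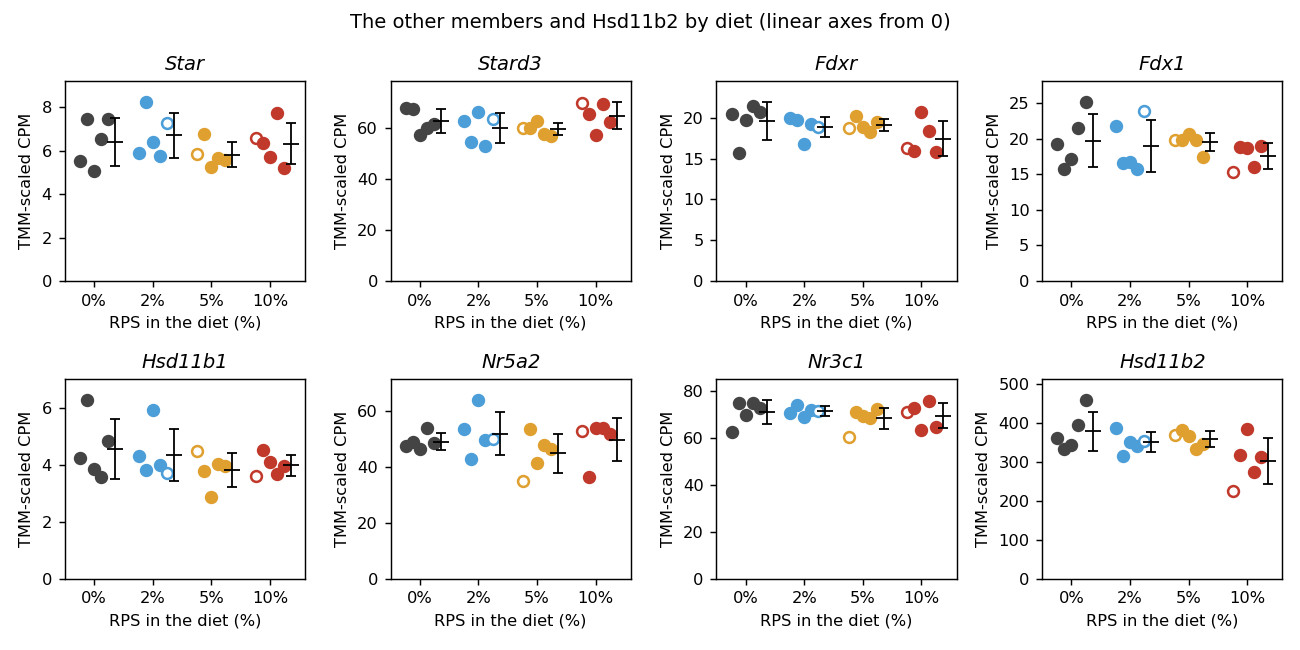
TMM-scaled CPM (linear axes from 0) of the 7 other analysed members and of Hsd11b2 by RPS in the diet. Circles are mice, open circles the 3 mice with disagreeing labels, and black bars mean ± SD of 5 mice. The diets overlap in every panel, for instance between 5.06 and 8.21 CPM for Star.

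The enzyme that activates glucocorticoid was far below the one that inactivates it, at 2.76 ± 0.648 against 203 ± 27.1 CPM per kilobase of transcript in controls. Hsd11b1 (ENSMUSG00000016194, chr1:192903918-192946489) measured 4.55 ± 1.07 CPM on TWD alone, 4.36 ± 0.911 at 2%, 3.83 ± 0.595 at 5% and 3.97 ± 0.361 at 10%. Its difference at 10% RPS was -0.20 ± 0.17 (interval -0.54 to 0.15, edgeR adjusted p = 0.608). The gene overlaps Lamb3 on the opposite strand, so some of its reads are uncertain. Hsd11b2, which turns active glucocorticoid into the inert form and so shields the aldosterone receptor, measured 378 ± 50.3 CPM in controls and 302 ± 58.4 CPM in the 10% diet. In 4 of 5 mice at 10% RPS it lay below the lowest control, with a log2 difference of -0.32 ± 0.11 that was not called (adjusted p = 0.162).

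The log2 ratio of Hsd11b1 to Hsd11b2 CPM, with a pseudocount of 0.5, was -6.24 ± 0.37 at 0% RPS and -6.06 ± 0.22 at 10% RPS. The difference of 0.18 did not pass a two-sided exact permutation test of 5 against 5 mice (p = 0.365, smallest possible 0.00794), nor did -0.14 at 5% RPS (exact p = 0.540) or 0.05 at 2% RPS (exact p = 0.738). Adjusted over these 3 comparisons, each p was 0.738. Without control mouse RS10_703, which had the highest Hsd11b1 of its group (6.27 CPM), the difference at 10% RPS was 0.34 (exact p = 0.0476). That p was not adjusted, and with 1 control fewer the smallest possible p given above does not apply. In the 13 other alternatives the difference ran from 0.0593 to 0.262.

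The 2 nuclear receptors did not differ detectably between diets. Nr5a2 (ENSMUSG00000026398, chr1:136770303-136888186) was 49.2 ± 2.91 CPM in controls and 49.9 ± 7.60 CPM in the 10% diet, a difference of 0.02 ± 0.12 (interval -0.22 to 0.26, edgeR adjusted p = 0.952). Nr5a2 is also abundant in exocrine pancreas, whose 8 marker genes summed to 5847 CPM in RS10_721 against at most 845 CPM in the mice of the 0% and 10% diets. Of these genes, Cela1 was at least 366 CPM in every library, and each other had a median of at most 0.650 CPM. Nr5a2 in RS10_721 was 47.9 CPM, inside the range of its diet (35.2 to 53.7 CPM). Nr3c1 (ENSMUSG00000024431, chr18:39543598-39652474) was 71.1 ± 5.19 CPM in controls and 69.6 ± 5.43 CPM in the 10% diet, a difference of -0.03 ± 0.07 (interval -0.17 to 0.11, adjusted p = 0.880). For both receptors a 1.5-fold change at 10% RPS lies outside the interval.

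**Figure D4:**
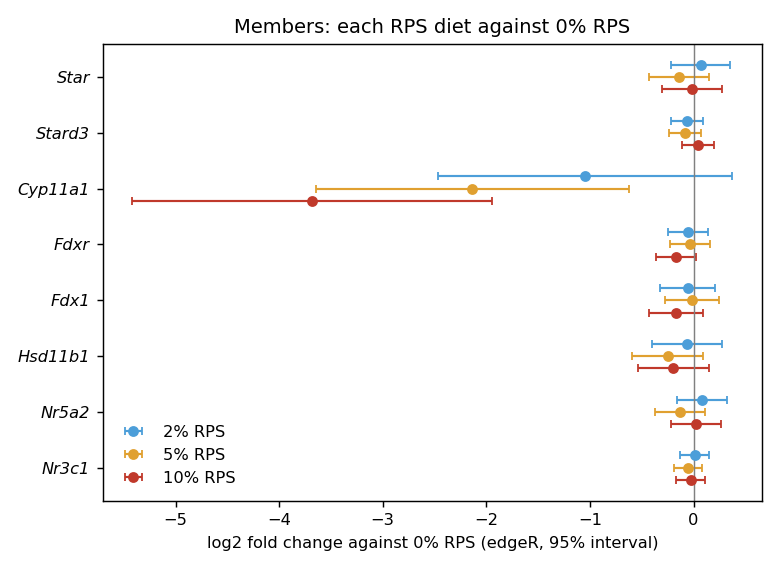
Log2 fold change of each analysed member at 2%, 5% and 10% RPS against 0% RPS, from 1 edgeR fit over 20 mice, with 95% intervals as bars. Cyp11a1 stands apart at -1.05, -2.13 and -3.68, and the other members lie between -0.25 and 0.08.

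On a scale per length, CPM per kilobase of the canonical transcript, the members at 0% RPS ranked from Stard3 (27.8 ± 2.08) through Fdx1 (16.8 ± 3.15), Nr3c1 (10.97 ± 0.800), Fdxr (9.84 ± 1.14) and Nr5a2 (9.53 ± 0.565) to Hsd11b1 (2.76 ± 0.648), Cyp11a1 (2.17 ± 2.04) and Star (1.58 ± 0.268). The neighbours Nr3c1 and Fdxr lay within the larger SD of the pair, as did Fdxr and Nr5a2, Hsd11b1 and Cyp11a1, and Cyp11a1 and Star, while Nr3c1 and Nr5a2 were further apart than that. At 10% RPS the level of Cyp11a1 on this scale was 0.168 ± 0.0971, the lowest of the members.

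Genes elsewhere on the pathway were taken from 4 lists. Of 15 listed corticosteroid enzymes and cofactors, 14 were matched and 10 tested. edgeR called 0 of 10 at 10% RPS, beside 0.0391% of all tested genes. DESeq2 called 1, Hsd3b3, beside 1.21% of the genes it tested. In edgeR 5 had an unadjusted p under 0.05, 4 higher and 1 lower, beside 15.2% of all tested genes. The median log2 difference of the list was 0.13, against -0.01 over all tested genes. The adrenal and gonadal enzymes were barely present, with Hsd3b1, Hsd3b6 and Cyp17a1 at the detection floor, Cyp21a1 at no more than 10 counts, and no row matched to Cyp11b2, which was not analysed here.

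Hsd3b3, a 3-beta-hydroxysteroid dehydrogenase of the enzyme family that acts on pregnenolone, was the list's 1 gene with a trend in edgeR, and it went the other way from Cyp11a1. DESeq2 gave 3 genes of the list a trend, all upward: Hsd3b3 (adjusted p = 0.000321), Sult2b1 (0.0104) and Hsd3b2 (0.0124). Over all genes, 985 of 16365 passed this DESeq2 trend test in either direction. Hsd3b3 measured 12.7 CPM in RS10_701, 21.3 in RS10_703, 19.6 in RS10_704, 22.4 in RS10_707 and 19.1 in RS10_708 at 0% RPS. At 10% RPS it measured 29.1 CPM in RS10_725, 25.7 in RS10_727, 37.2 in RS10_729, 46.7 in RS10_731 and 35.9 in RS10_784, all above the highest control, a separation that 2.28% of tested genes showed in one direction or the other. Hsd3b3 rose with RPS percent (slope 0.10 ± 0.02 log2 per percent, edgeR adjusted p = 0.0191), and its difference at 10% RPS was 0.88 ± 0.22 (adjusted p = 0.0861, DESeq2 0.00660). The trend did not pass without RS10_731 (adjusted p = 0.0566), without RS10_784 (0.0602), without the 3 mice of disagreeing labels (0.0569) or by the treatment label (0.175). In that order, 139 of 18075, 24 of 18084, 56 of 17928 and 0 of 17893 tested genes passed, against 375 of 17893 in the main fit. The Hsd3b genes are close copies of each other, so the split of reads among them is uncertain.

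Hsd3b2, its paralog, had a difference of 0.95 ± 0.33 at 10% RPS that was not called (adjusted p = 0.180), with 5.14 ± 2.16 CPM against 2.67 ± 0.884 CPM. Sult2b1, a sulfotransferase of cholesterol and other hydroxysteroids, measured 33.7 ± 5.96 CPM in controls and 46.7 ± 3.96 CPM in the 10% diet, where 4 of 5 mice exceeded all controls. Its difference of 0.47 ± 0.12 was not called (edgeR adjusted p = 0.0890, DESeq2 0.0171, fold 1.38). Colon epithelial marker genes, whose sums are given above, included 3 of 8 with an unadjusted edgeR p under 0.05, beside 15.2% of all tested genes. All 3 were higher at 10% RPS, as Hsd3b3, Hsd3b2 and Sult2b1 were. The part of the epithelium in these differences was not tested.

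The remaining lists held no called gene and no trend at an adjusted p of 0.05 in edgeR. Over all tested genes edgeR called 0.0391% at 10% RPS and passed 2.10% for a trend. DESeq2 called none of their genes at 10% RPS, beside 1.21% of the genes it tested. It gave a downward trend to Mt2 (adjusted p = 0.0236) and Per1 (0.0448), of the glucocorticoid response list. That DESeq2 trend test passed 985 of 16365 genes in either direction. Of 11 genes of cholesterol supply to mitochondria, all tested, 1 had an unadjusted p under 0.05 at 10% RPS, beside the 15.2% of all tested genes. It was Acbd3, a Golgi protein that binds the mitochondrial transporter Tspo (0.23 ± 0.08, edgeR adjusted p = 0.201). The list's median was 0.13, and the next smallest p-values belonged to Npc1, a lysosomal cholesterol exporter (0.18, adjusted p = 0.419), and Scarb1, the receptor for high-density lipoprotein (0.14, adjusted p = 0.425). Of 15 regulators, 12 were matched and 8 tested, with 0 of 8 under an unadjusted p of 0.05. Their smallest p-values were those of Nr3c2, the aldosterone receptor (0.17, adjusted p = 0.409), Prox1, a transcription factor that represses Nr5a2 (0.26, adjusted p = 0.452), and Creb1 (0.08, adjusted p = 0.700). Nr0b2, a repressor of Nr5a2, and Mc2r were at the detection floor, and no row was matched to Nr5a1, Nr0b1 or Crh, which were not analysed here.

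Of 14 glucocorticoid response genes, all tested, 2 had an unadjusted p under 0.05 at 10% RPS, both lower, a share near the 15.2% of all tested genes, and the median was -0.10. These were Mt2, a metal-binding protein (43.2 ± 29.2 CPM at 0% and 14.6 ± 3.39 CPM at 10%, difference -1.57 ± 0.53, edgeR adjusted p = 0.182), and Per1, a clock gene that the receptor induces (-0.39 ± 0.16, adjusted p = 0.247). Fkbp5, a chaperone of the receptor, followed (-0.33 ± 0.16, adjusted p = 0.351). Tsc22d3 (GILZ), among the most used readouts of the receptor, differed by -0.15 ± 0.15 (adjusted p = 0.686). Per1 belongs to the clock as Dbp does, and its correlation with Cyp11a1 was 0.66 over 20 mice. After subtraction of diet means it was 0.48, lower, where that of Dbp was higher.

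**Figure D5:**
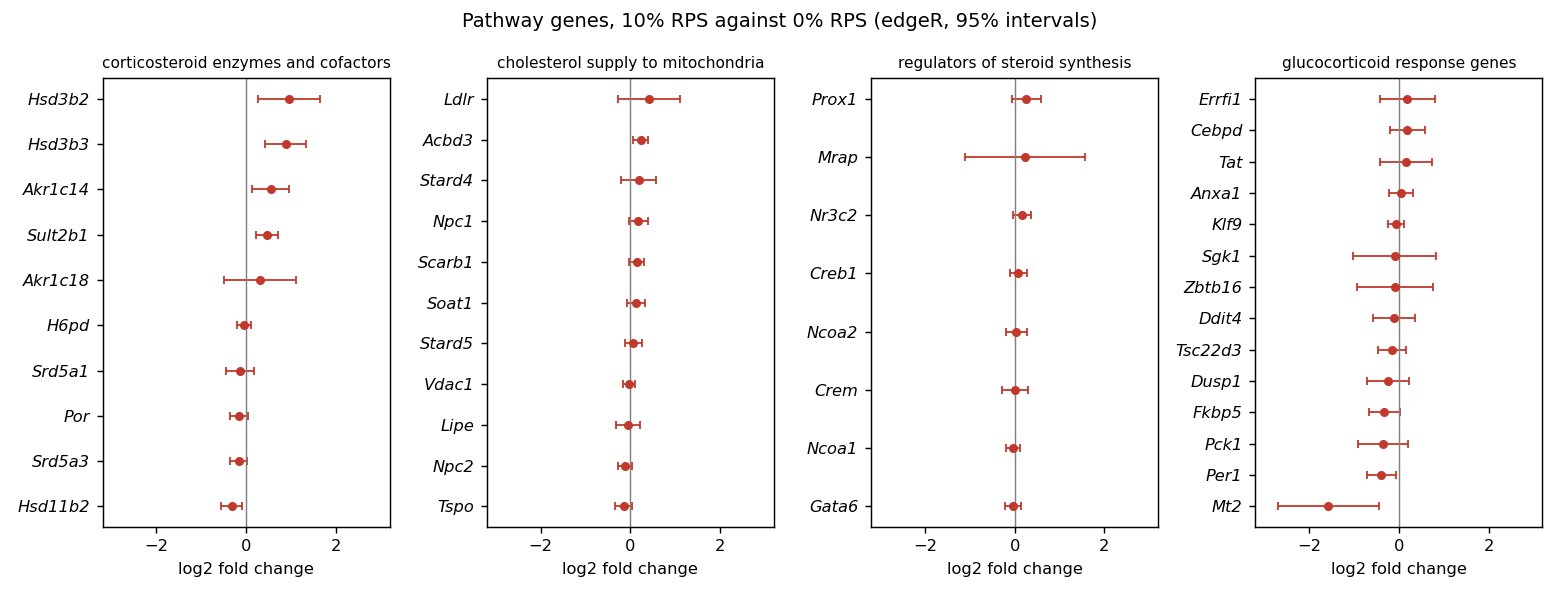
Log2 fold change at 10% RPS against 0% RPS for the tested genes of the 4 pathway lists, with 95% edgeR intervals, 1 panel per list and the same axis from -3.2 to 3.2. Hsd3b2 and Hsd3b3 lie highest (0.95 and 0.88) and Mt2 lowest (-1.57).

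The aldosterone-responsive sodium channel subunits Scnn1b and Scnn1g had the same order over the diets as Cyp11a1, with differences at 10% RPS of -1.54 ± 0.34 (edgeR adjusted p = 0.0781) and -2.10 ± 0.57 (adjusted p = 0.110). Both fell with RPS percent by the trend test (adjusted p = 0.0241 and 0.0410). Their correlations with Cyp11a1 were 0.81 and 0.73 over 20 mice, and 0.42 and 0.26 after subtraction of diet means. Their correlation with Cyp11a1 was thus lower once the diet means were removed, while that of Dbp was higher.

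The tested genes whose log2 CPM followed Cyp11a1 most closely over the 20 mice, among those with a mean of at least 1 CPM, were Dcp1b (Spearman 0.96), Ermard (0.93), Ip6k2 (0.93), Araf (0.92) and Rbfa (0.92). They changed far less than Cyp11a1 did: Dcp1b was 46.2 ± 11.5 CPM in controls and 32.2 ± 1.92 CPM in the 10% diet, and Araf 108.8 ± 6.81 and 95.9 ± 2.28 CPM. After subtraction of diet means the 5 closest were Gprin3 (0.92), Cyp2d12 (0.90), Dcp1b (0.89), Pbld2 (0.88) and Ccdc62 (0.88), so that Dcp1b was in both groups. For the other members the closest pairs were Kdsr and Insr for Star (0.83 and 0.82), Tcirg1 and B4galt7 for Stard3 (0.85 and 0.82), Atp8a2 and Cyp3a13 for Fdxr (both 0.87), Trir and Spint2 for Fdx1 (0.90 and 0.88), Zfp57 and Tmem132a for Hsd11b1 (both 0.78), Ptprk and Gvin1 for Nr5a2 (0.87 and 0.84), and C030014I23Rik and Mr1 for Nr3c1 (0.85 and 0.82). These are the highest of the correlations with all such genes over mice that share diet and library effects, and are given as a description.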

How the data were processed

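RNA of distal colon from 20 mice was sequenced as stranded mRNA libraries (single-end reads). The authors removed bases under Q30 and reads with more than 2 ambiguous bases, mapped and counted in CLC Genomics Workbench against GRCm39, and deposited raw counts per gene. Annotation release, strand setting and multi-mapping reads are not given in the sources used here, so overlapping and paralogous genes are uncertain.

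Groups came from the description label. Identifiers were matched to GENCODE vM39 (26338 of 26619). Members and lists were chosen with earlier results of these data known. In R 4.3.3, edgeR 4.0.16 (filterByExpr minimum count 10, TMM, robust quasi-likelihood, 1 fit over 4 diets, Benjamini-Hochberg adjustment over all tested genes) was the test, with calls requiring a fold of at least 1.5 and an adjusted p no higher than 0.05. The trend and any-difference tests had no fold threshold. SE is the log2 fold change divided by the root of F. DESeq2 1.42.0 was an alternative. The prior count for log2 CPM was 2. The procedure was tested on simulated data. Named genes were all members, list genes called or with a trend, the 3 smallest p-values per list at 10% RPS, and those at the detection floor. Mice share no numbers across diets. The 40 pairs of mice within diets differed beyond sampling noise (chi-square per degree of freedom 9.74 to 67.9), and whether mice shared cages or litters is not given in the sources used here.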

Additional observations from a re-analysis of the deposited data

Results flagged for a closer look

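Of 36 groups of 5 mice (8 members and the Hsd11b1 to Hsd11b2 ratio in 4 diets), 4 held a mouse far from the others by Dixon's test, where chance gives about 1 in 20, or 1.8. Fdxr at 0% RPS was lowest in RS10_703 (15.7 CPM, next 19.8), the control also lowest in Cyp11a1. Fdx1 at 5% RPS was lowest in RS10_724 (17.4 CPM, next 19.8). Hsd11b1 at 2% RPS was highest in RS10_715 (5.94 CPM, next 4.30). Nr5a2 at 10% RPS was lowest in RS10_727 (36.3 CPM, next 52.0), the library with the smallest total (18.4 megacounts). With all libraries thinned to that total, Nr5a2 had 668 counts in RS10_727 and 918 to 984 in the other mice of the diet. Cyp11a1 had no such mouse in any diet.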

How the results depend on the processing

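Under DESeq2, 1 member was called at 10% RPS, Cyp11a1 (-3.68), and 1 differed between any diets, against 0 for each in edgeR. Over all genes, DESeq2 passed 210 and 349 of 17373 in these tests, and edgeR 7 and 13 of 17893. The count of members with a trend, 1, became 0 with the treatment label and 0 without the 3 mice of disagreeing labels. Over all tested genes the trend then passed for 0 of 17893 and 56 of 17928, against 375 of 17893 in the main fit. Leaving out 1 mouse at a time gave 0 to 1 members called at 10% RPS, 0 to 1 with a trend (0 without RS10_784), a Cyp11a1 difference at 10% RPS of -4.07 to -3.23, a Hsd11b1 to Hsd11b2 ratio difference of 0.0907 to 0.335, and differences of -0.0996 to 0.0511 for Star, -0.00769 to 0.123 for Nr5a2 and -0.0719 to 0.00478 for Nr3c1. At 5% and 2% RPS 0 members were called in any of the 29 alternatives. No test passed where these last 3 members changed sign, which they also did at 0.0163 (Star, treatment label), 0.00696 (Star, Dbp as covariate) and 0.0201 (Nr3c1, thinned libraries). No paired analysis was possible because mouse numbers are unique to an animal. Cyp11a1 at 10% RPS rests on 4 to 17 counts a library, which limits the precision of its fold.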
